A study of Homo sapiens with 16 samples.

Results

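The genes described are the cyclins and kinases that carry cells through G1, with the retinoblastoma gene. They were taken by symbol from the deposited count and CPM tables, in which CPM are counts scaled to a common library total, with no threshold on a measured value. The 10 genes, of 27037 in the count table, were the D cyclins CCND1, CCND2 and CCND3, their kinases CDK4 and CDK6, RB1, the E cyclins CCNE1 and CCNE2, their kinase CDK2, and the phosphatase CDC25A. RNA sequencing was done in 16 samples of SK-N-BE(2)C, a human neuroblastoma line with amplified MYCN, in 4 groups of 4 replicates. Cells received the vehicle DMSO, retinoic acid at 10 µM (RA), palbociclib at 1 µM (PB), or both agents at these concentrations (PB+RA). RA is a vitamin A derivative given to patients to make neuroblastoma cells differentiate, and PB is an inhibitor of CDK4 and CDK6. Treatment lasted several days. Per the study's methods, replicates were passages of the line plated as separate experiments, and every group was the same line, so the values describe SK-N-BE(2)C alone.

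In G1, D cyclins bind CDK4 or CDK6, and the active kinase adds phosphate to RB. Unphosphorylated RB holds E2F transcription factors in check, and phosphorylation frees them to drive genes of DNA synthesis and those of the E cyclins. Cyclin E then activates CDK2, which phosphorylates RB further and starts S phase, and CDC25A removes the inhibitory phosphates from CDK2. RNA levels report none of the phosphorylation steps.

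Promoter letters are shown for 3 of these genes because their RNA changed in different ways under PB: CDC25A fell, and CCNE1 and CDK4 did not pass the fold minimum. The windows are from RefSeq (GRCh38.p14), and each line gives the 100 bases before the annotated start, on the gene's strand. Windows were used for 5 of the 10 genes. CCND1, CCND2, CCNE2 and CDK2 had no entry, although CCNE2 and CDK2 fell further in PB than CDC25A. The RB1 window was left out because it lies inside the gene and not at its 5′ start. Capitals mark matches to the letters of the E2F recognition site (TTTCCCGC, TTTGGCGC, TTTCGCGC or TTTGCCGC, or these without the first T), searched on both strands.
CDC25A, chr3:48188418-48188517, minus strand: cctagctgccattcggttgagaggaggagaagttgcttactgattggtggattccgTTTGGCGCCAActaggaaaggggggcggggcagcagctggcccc
CCNE1, chr19:29811891-29811990, plus strand: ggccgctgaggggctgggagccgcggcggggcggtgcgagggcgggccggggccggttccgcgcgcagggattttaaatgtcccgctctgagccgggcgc
CDK4, chr12:57752311-57752410, minus strand: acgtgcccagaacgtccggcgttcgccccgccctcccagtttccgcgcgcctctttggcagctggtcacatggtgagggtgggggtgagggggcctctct
The CDC25A window held 1 match of 8 letters, overlapped on the opposite strand by a match of 7 letters. Among 35116 RefSeq windows of 300 bases (250 before the start and 50 after), 3.31% held an 8-letter match and 12.97% a 7-letter match. No match was found in the 300-base windows of CCNE1, CDK4, CCND3 and CDK6, of which CCND3 and CDK6 had more than 1 window each. The genes shown were chosen by their change in PB, so a link between these letters and the changes was not tested. A match describes letters and is not a measured binding site, and the absence of these letters from a window says nothing about the factor.

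The libraries held 19.52 to 31.62 M counts, and 15415 genes had enough counts to be tested. Of the 10 genes, 9 were tested. CCND2 was not, with at most 2 counts in any sample and 0 in the DMSO replicates, where a count of 0 allows up to 3 counts. Of the adrenergic markers, HAND2 averaged 779.4 CPM over the 16 samples, DBH 493 CPM and TH 209 CPM. The mesenchymal markers (7 of 7 with a row in the table, among them FN1, VIM and CD44) summed to 1028 to 1260 CPM in DMSO, 1763 to 2176 in RA, 860.7 to 1023 in PB and 1088 to 1505 in PB+RA. The Schwann cell markers summed to at most 54.6 CPM, with SOX10 at 0.00302 CPM on average. Of the leukocyte markers, PTPRC (0.101 CPM) and LYZ (0.0302 CPM) were near 0, whereas the summed list ran from 19.0 to 24.9 CPM in DMSO and 43.4 to 103.9 CPM in RA, carried by CD14. The part of these marker shifts in the results was not tested. In bulk RNA, fewer cells of a type and less RNA per cell cannot be told apart.

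A gene was called where its adjusted p, over all genes tested, was below 0.05 and its log2 fold change exceeded 0.5 in size. The changes are log2 fold changes with standard errors (SE) from 1 edgeR quasi-likelihood fit over the 16 samples. That fit did not use the replicate numbers. PB raised CCND1 and lowered CCNE2, CDK2 and CDC25A. These are 4 of the 9 genes, beside 28.2% of all genes tested, with 1 higher beside 16.9% and 3 lower beside 11.3%. RA lowered CCNE2 alone, which is 1 of 9, beside 13.3% of all genes called and 2.54% called lower. PB+RA raised CCND1 and lowered CCND3, CDK4, RB1, CCNE2, CDK2 and CDC25A. These are 7 of 9, beside 41.9% of all genes, with 1 higher beside 24.0% and 6 lower beside 17.9%. With no fold minimum, 9 of 9 genes passed the p threshold in PB beside 53.6% of all genes, 5 in RA beside 35.2% and 9 in PB+RA beside 66.1%. The CPM of the 2 groups did not overlap for 9 genes in PB beside 49.9% of all genes, 4 in RA beside 37.2% and 8 in PB+RA beside 58.2%. The median log2 fold change of the 9 genes was -0.28 in PB, -0.23 in RA and -0.68 in PB+RA, and over all genes it was 0.03, 0.01 and 0.04. The 3 comparisons share the DMSO samples.

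**Figure D1:**
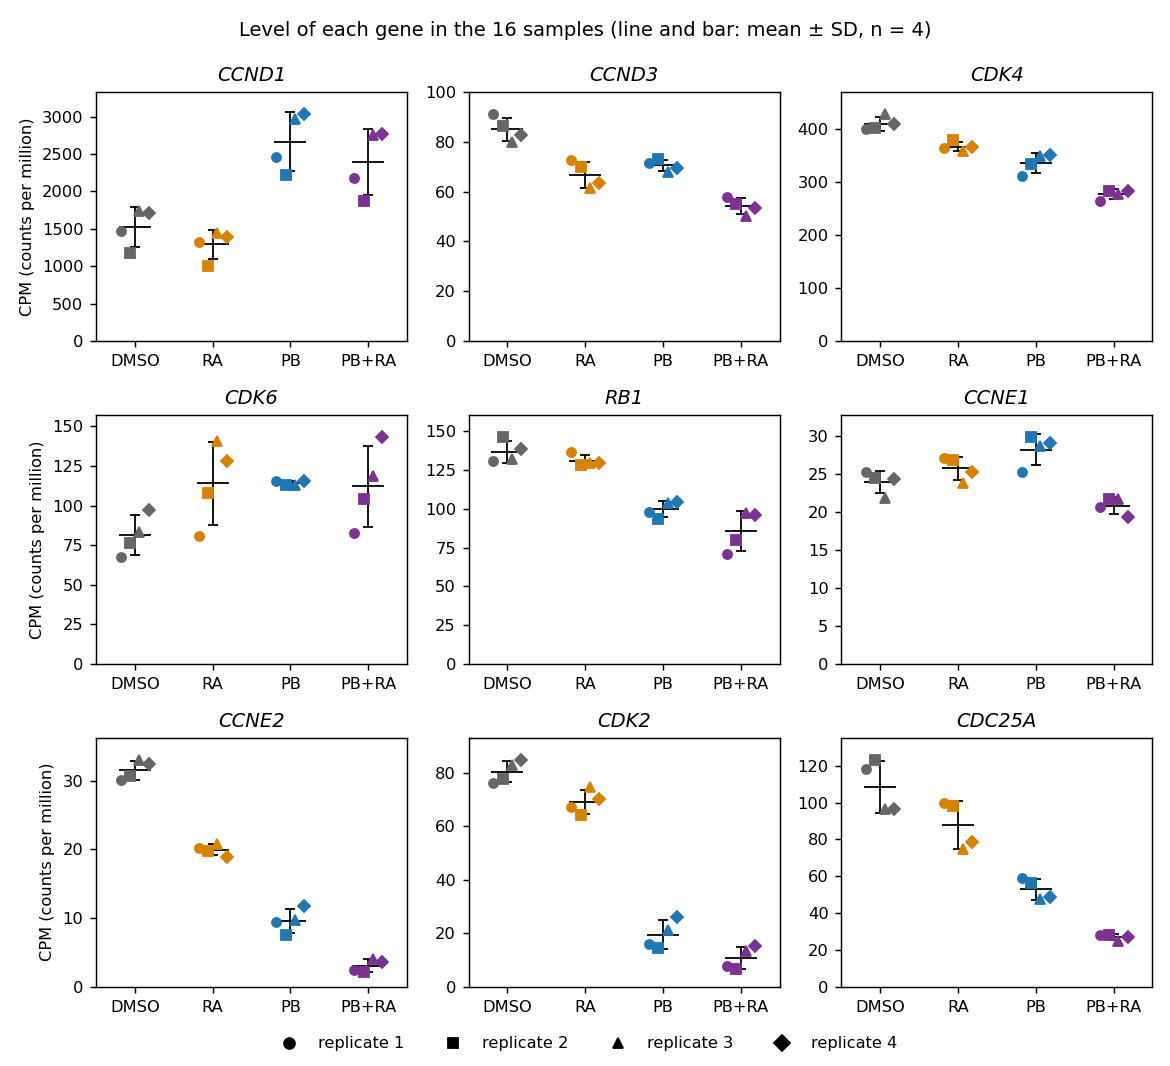
The CPM of the 9 tested genes (y axis, starting at 0) in every sample of DMSO, RA, PB and PB+RA (x axis). Points are samples, with the marker shape giving the replicate number, and the line and bar are the mean ± SD (n = 4). CCND1 is highest in PB and PB+RA, while CDK2 runs from 76.4 to 84.7 CPM in DMSO and from 6.86 to 15.3 CPM in PB+RA.

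CCND1, the D cyclin that mitogen signals induce, was the one gene of the 10 called higher in any comparison. It lies on chromosome 11 (69455924 to 69469242, plus strand, GRCh37). DMSO replicates 1 to 4 stood at 1474, 1175, 1741 and 1715 CPM, and the PB replicates at 2456, 2217, 2964 and 3031 CPM. Every PB replicate was above every DMSO replicate. The RA replicates stood at 1321, 1010.1, 1451 and 1387 CPM and the PB+RA replicates at 2179.6, 1876, 2751 and 2769 CPM. The RA samples overlapped those of DMSO, and the PB+RA samples did not. The mean was 1526 ± 263.2 CPM (SD, n = 4) in DMSO and 2667 ± 394.9 CPM in PB. This is 1.75-fold, or 0.81 ± 0.158 on the log2 scale (adjusted p = 0.000515). In PB+RA the change was 0.62 ± 0.158 (adjusted p = 0.00276), and in RA it was -0.25 ± 0.157 (adjusted p = 0.239). With the replicate number as a block, the RA change was -0.24 ± 0.0429 and passed the p threshold (adjusted p = 8.87e-05), under the fold minimum. The RA sample was below the DMSO sample of the same number in 4 of 4 pairs. The PB+RA call was lost, at 0.48, after a GC and length correction of the counts. It was also lost without DMSO replicate 2, the lowest of the DMSO samples, where the change was 0.485.

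CCND3, the D cyclin best known from lymphoid cells, was lower than in DMSO in each treated group. This was opposite in direction to CCND1 in PB and PB+RA, but not in RA. It lies on chromosome 6 (41902672 to 42018095, minus strand, GRCh37). CCND3 stood in the DMSO replicates at 91.0, 86.3, 80.1 and 82.6 CPM and in the PB+RA replicates at 58.0, 55.2, 50.03 and 53.4 CPM. RA gave 72.5, 69.8, 61.3 and 63.5 CPM, and PB gave 71.6, 73.2, 67.9 and 69.3 CPM. No treated sample reached the lowest DMSO sample, whereas RA and PB samples overlapped each other. CCND3 fell in PB+RA by 0.68 on the log2 scale (SE 0.0634, adjusted p = 7.92e-08). The changes of -0.36 ± 0.0629 in RA (adjusted p = 0.00042) and -0.27 ± 0.063 in PB (adjusted p = 0.00182) passed the p threshold and were under the fold minimum. With the GC and length correction the RA change was -0.50 and was called. CCND2, the third D cyclin, summed to 0 counts over the DMSO samples, 3 with RA, 1 with PB and 4 with both agents, so no difference was detectable at this depth.

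CDK4 and CDK6 encode the kinases that PB inhibits. CDK4 lies on chromosome 12 (58141510 to 58149796, minus strand, GRCh37). Its DMSO replicates stood at 399.8, 400.4, 427 and 408 CPM and its PB+RA replicates at 265, 283, 277 and 283 CPM. RA gave 363, 379, 358 and 365 CPM, and PB gave 310.2, 334, 349 and 351 CPM. The 3 treated groups all lay below DMSO and, of them, PB+RA was the lowest, with no sample shared with either agent alone. CDK4 fell in PB+RA by 0.59 on the log2 scale (SE 0.047, adjusted p = 1.12e-08). Its changes of -0.28 ± 0.0469 in PB (adjusted p = 8.84e-05) and -0.17 ± 0.0468 in RA (adjusted p = 0.0109) were under the fold minimum. TSPAN31 overlaps CDK4 on the opposite strand over 44.2% of its exon bases. It was at 4.45% of the CDK4 level, a neighbour added here after its values were seen.

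CDK6 lies on chromosome 7 (92234235 to 92465887, minus strand, GRCh37) and encodes the other PB target. Its DMSO replicates stood at 67.8, 76.5, 83.4 and 97.3 CPM, and its PB replicates at 115, 113, 113 and 116 CPM. RA gave 80.6, 108, 140.4 and 128 CPM, and PB+RA gave 82.4, 104, 119 and 143 CPM. All PB samples were above all DMSO samples and lay within a narrow band, while RA and PB+RA spread widely and each overlapped DMSO at replicate 1. Each RA and PB+RA sample was nonetheless above the DMSO sample of the same number. The coefficient of variation of the PB samples was 1.25%, below the 2.01% of counting error, so the band was narrower than counting error alone gives on average. The changes were 0.49 ± 0.167 in PB (adjusted p = 0.0207), 0.48 ± 0.166 in RA (adjusted p = 0.0348) and 0.43 ± 0.167 in PB+RA (adjusted p = 0.0312), none past the fold minimum. With the replicate number as a block, CDK6 was called higher in PB at 0.51 (adjusted p = 0.000834). In that fit the RA change was 0.47 (adjusted p = 0.00231) and the PB+RA change 0.42 (adjusted p = 0.00266), both under the fold minimum. Without DMSO replicate 4, the highest of its group, the changes were 0.58 in PB, 0.57 in RA and 0.52 in PB+RA, and all 3 were called. Without RA replicate 1, the RA change was 0.60 and was called.

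RB1 encodes the pocket protein that these kinases phosphorylate, and lies on chromosome 13 (48877880 to 49173572, plus strand, GRCh37). Replicates 1 to 4 of DMSO stood at 131, 146, 132 and 138 CPM and those of PB+RA at 70.7, 80.1, 97.3 and 95.9 CPM. RA gave 137, 129, 129.8 and 129.9 CPM, and PB gave 98.2, 93.6, 104 and 104 CPM. PB and PB+RA samples all lay below DMSO and RA samples. RB1 fell in PB+RA by 0.70 on the log2 scale (SE 0.081, adjusted p = 1.01e-06), and its change in PB was -0.45 ± 0.0807 (adjusted p = 0.000178), under the fold minimum. The PB change was -0.50 without PB replicate 4 and was then called. In RA it was -0.07 ± 0.0802 (adjusted p = 0.533).

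The E cyclins bind and activate CDK2, and only CCNE2 of the pair was called against DMSO. CCNE1 lies on chromosome 19 (30302898 to 30315219, plus strand, GRCh37) and was not called in any group against DMSO. Its DMSO replicates stood at 25.2, 24.5, 21.8 and 24.3 CPM and its PB replicates at 25.2, 29.8, 28.7 and 29.1 CPM. RA gave 27.1, 26.8, 23.7 and 25.2 CPM, and PB+RA gave 20.6, 21.7, 21.7 and 19.3 CPM. Each PB sample was above the whole DMSO group by a margin that was smallest for replicate 1, and each PB+RA sample was below it. The change was 0.24 ± 0.0723 in PB (adjusted p = 0.0108), -0.23 ± 0.0728 in PB+RA (adjusted p = 0.0113) and 0.10 ± 0.0722 in RA (adjusted p = 0.323).

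CCNE2 lies on chromosome 8 (95891998 to 95908906, minus strand, GRCh37) and was lowered in each treated group. Its DMSO replicates stood at 30.03, 30.7, 33.0 and 32.4 CPM, and its RA replicates at 20.2, 19.7, 20.8 and 19.0 CPM. PB gave 9.40, 7.498, 9.79 and 11.7 CPM, and PB+RA gave 2.43, 2.17, 4.12 and 3.69 CPM. The groups stepped down in this order with no overlap between any of them. CCNE2 fell by 0.67 on the log2 scale in RA (SE 0.143, adjusted p = 0.00183) and by 1.71 in PB (SE 0.149, adjusted p = 9e-08). In PB+RA it fell by 3.38 (SE 0.166, adjusted p = 3.36e-11), which is 10.4-fold lower. The PB+RA values rest on 49 to 102 counts per sample. INTS8, of the Integrator complex, overlaps CCNE2 on the opposite strand over 37.05% of its exon bases and was at 42.8, 40.03, 34.1 and 29.0 CPM on average in DMSO, RA, PB and PB+RA. NDUFAF6, a mitochondrial complex I assembly factor, shares no exon base with it and was at 22.3, 20.2, 20.6 and 18.2 CPM. Whether the counts were taken by strand was not stated, and the mean of CCNE2 lay below that of both neighbours in every treated group.

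CDK2 encodes the kinase of the E cyclins and lies on chromosome 12 (56360565 to 56366573, plus strand, GRCh37). In DMSO the replicates stood at 76.4, 77.8, 83.1 and 84.7 CPM, and in PB at 15.9, 14.4, 21.4 and 26.2 CPM. RA gave 67.2, 64.4, 74.6 and 70.1 CPM, and PB+RA gave 7.91, 6.86, 13.3 and 15.3 CPM. PB and PB+RA lay far below DMSO and RA, and the RA samples sat just under the DMSO samples. CDK2 fell by 2.04 on the log2 scale in PB (SE 0.211, adjusted p = 1.15e-06), which is 4.12-fold lower. In PB+RA it fell by 2.93 (SE 0.222, adjusted p = 1.58e-08), which is 7.60-fold lower. In replicates 1 and 2 alone the PB+RA change was -3.41, and in replicates 3 and 4 alone it was -2.62. In RA the change was -0.23 ± 0.198 (adjusted p = 0.398) with all 16 samples in the fit, and -0.23 ± 0.0553 (adjusted p = 0.00723) with the spread taken from the RA and DMSO samples alone. Either value was under the fold minimum.

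CDC25A, the phosphatase whose promoter window held the E2F letters, lies on chromosome 3 (48198636 to 48229907, minus strand, GRCh37). Its DMSO replicates stood at 118, 123, 96.4 and 96.8 CPM, and its PB replicates at 59.4, 56.5, 47.7 and 49.0 CPM. RA gave 99.8, 97.9, 74.6 and 78.7 CPM, and PB+RA gave 28.2, 28.3, 25.2 and 27.004 CPM. RA samples overlapped DMSO samples, although each RA sample was below the DMSO sample of the same number. PB and PB+RA each lay apart from every other group. CDC25A fell by 1.03 on the log2 scale in PB (SE 0.108, adjusted p = 7.33e-07) and by 2.03 in PB+RA (SE 0.112, adjusted p = 1.49e-10), which is 4.08-fold lower. The RA change of -0.32 ± 0.106 (adjusted p = 0.0292) was under the fold minimum. With the replicate number as a block the RA change was -0.32 ± 0.0483 (adjusted p = 1.64e-05), also under the fold minimum.

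**Figure D2:**
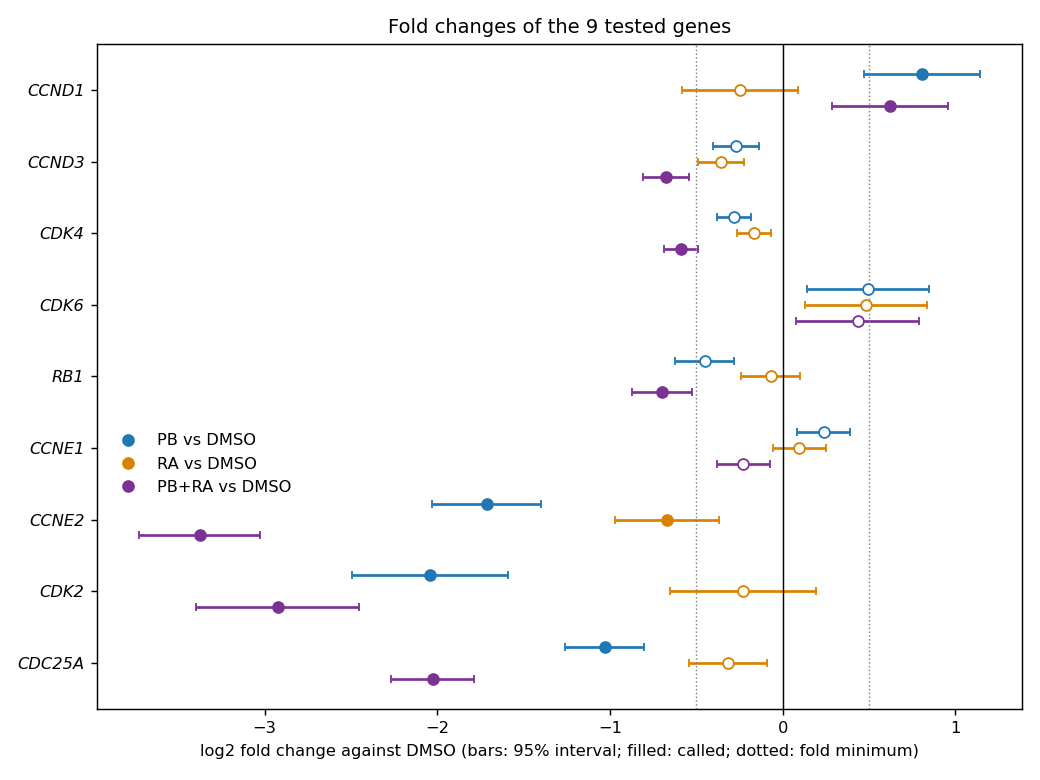
The log2 fold change against DMSO (x axis) of the 9 tested genes (y axis) in PB, RA and PB+RA. Bars are 95% intervals, filled points are called genes and dotted lines mark the fold minimum of 0.5. CCNE2, CDK2 and CDC25A lie furthest to the left in PB and PB+RA, and CCND1 lies furthest to the right.

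The next question was whether the agents differed from each other. Between PB and RA, 4 of the 9 genes were called, beside 26.0% of all genes, with 1 higher in PB beside 12.3% and 3 lower beside 13.8%. With no fold minimum 5 passed, beside 51.8% of all genes, and for 6 the groups did not overlap, beside 47.7%. For CCND1 the PB level exceeded that of RA by 1.06 ± 0.159 on the log2 scale (adjusted p = 5.95e-05). CCNE2 (-1.04 ± 0.149), CDK2 (-1.81 ± 0.211) and CDC25A (-0.72 ± 0.108) were lower in PB, with adjusted p of 2.44e-05, 5.17e-06 and 4.33e-05. RB1, at -0.38 (adjusted p = 0.000885), passed the p threshold without the fold minimum. For CDK6 the difference was 0.01, with a 95% interval from -0.34 to 0.36.

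Adding RA to PB lowered 3 of the 9 genes, beside 16.3% of all genes called and 7.27% called lower. With no fold minimum 7 passed, beside 38.1% of all genes, and for 5 the groups did not overlap, beside 31.4%. CCNE2 fell by 1.66 on the log2 scale (SE 0.167, adjusted p = 1.32e-06), and CDC25A fell by 1.00 (SE 0.111, adjusted p = 4.18e-06). CDK2 fell by 0.88 (SE 0.221, adjusted p = 0.00574). For CDK2 the PB and PB+RA samples overlapped, although each PB+RA sample was below the PB sample of the same number. With the replicate number as a block the CDK2 change was -0.89 ± 0.171 (adjusted p = 0.000882). CCNE1, at -0.47 ± 0.073 (adjusted p = 0.000113), CCND3, at -0.41 (adjusted p = 0.000105), CDK4, at -0.31 (adjusted p = 8.68e-05), and RB1, at -0.25 (adjusted p = 0.0234), were under the fold minimum. Without PB replicate 1 the CCNE1 change was -0.51 and was called, as was the CCND3 change, also -0.51, with the GC and length correction. CCND1 differed by -0.19 (adjusted p = 0.38), and with the replicate block by -0.19 with adjusted p = 0.000824, under the fold minimum.

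Adding PB to RA moved 5 of the 9 genes past both thresholds, beside 29.0% of all genes, with 1 higher beside 14.9% and 4 lower beside 14.1%. With no fold minimum 8 passed, beside 54.4% of all genes, and for 8 the groups did not overlap, beside 46.7%. CCND1 rose by 0.87 on the log2 scale (adjusted p = 0.000267). RB1 fell by 0.63 (adjusted p = 6.11e-06) and CDC25A fell by 1.71 (adjusted p = 2.71e-09). CDK2 fell by 2.70 (adjusted p = 8.14e-08) and CCNE2 fell by 2.71 (adjusted p = 1.14e-09). CDK4, at -0.42 (adjusted p = 1.18e-06), CCND3 and CCNE1, both at -0.32 (adjusted p = 0.000428 and 0.00128), and CDK6, at -0.05 (adjusted p = 0.825), were not called. In replicates 3 and 4 alone the RB1 change was -0.44, under the fold minimum.

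Whether the joint change was the sum of the single changes was tested as an interaction, the PB+RA change minus the sum of the PB and RA changes on the log2 scale. CCNE2, CDC25A and CCNE1 were called below additive, which is 3 of 9 with and without the fold minimum, beside 3.44% of all genes (3.02% below additive and 0.415% above) and 5.29% with no fold minimum. For CCNE2 the single changes summed to -2.38 and the joint change was -3.38, an interaction of -0.99 ± 0.218 (adjusted p = 0.0136). For CDC25A the sum was -1.35 and the joint change -2.03, an interaction of -0.68 ± 0.153 (adjusted p = 0.0155). For CCNE1 the sum was positive, 0.33, and the joint change negative, -0.23, an interaction of -0.56 ± 0.103 (adjusted p = 0.0043). CCNE1 is thus the one gene whose estimated joint change had the opposite sign to both single changes, although none of these was past the fold minimum. Its RA change had a 95% interval from -0.06 to 0.25, so the sign of that change is not settled.

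The interaction of CDK2 was -0.65 ± 0.297 (adjusted p = 0.256), and it was called at -0.82 (adjusted p = 0.00454) in replicates 1 and 2 alone. The interaction of CDK6 was -0.54 ± 0.235 (adjusted p = 0.229), and with the replicate number as a block it was -0.56 and was called (adjusted p = 0.0212). The interaction of CCND1 was 0.06, with a 95% interval from -0.41 to 0.54. RB1 (-0.18), CDK4 (-0.14) and CCND3 (-0.05) were not called. Without DMSO replicate 3 the CCNE1 interaction (-0.48) and the CDC25A interaction (-0.59, adjusted p = 0.0545) both lost their call. Without PB replicate 1 the CDC25A interaction (-0.59, adjusted p = 0.0542) lost it, as did the CCNE1 interaction without PB+RA replicate 4 (-0.48) and with the GC and length correction (-0.498). In replicates 1 and 2 alone the CCNE1 interaction (-0.51, adjusted p = 0.0778) was not called either. With the replicate number as a block, CCNE2 (-0.999, adjusted p = 0.000356), CDC25A (-0.68, adjusted p = 2.63e-06) and CCNE1 (-0.56, adjusted p = 0.000465) kept their calls.

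**Figure D3:**
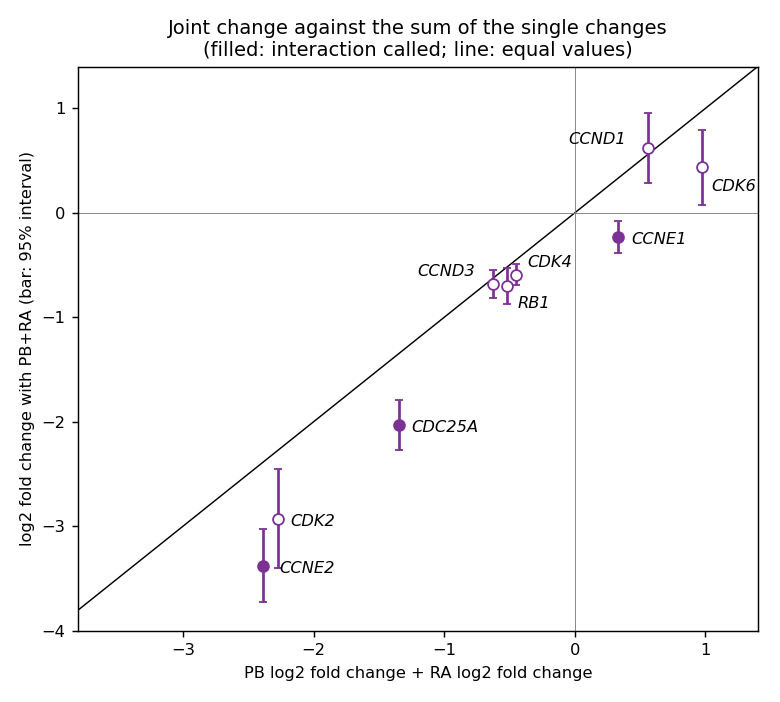
The log2 fold change with PB+RA (y axis, bars are 95% intervals) against the sum of the PB and RA log2 fold changes (x axis) for the 9 tested genes, with the line of equal values. Filled points are the called interactions. CCNE2 (-2.38 against -3.38) and CDC25A (-1.35 against -2.03) lie below the line, and CCNE1 lies below it with a positive sum and a negative joint change.

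Levels can be compared between genes only per length, so CPM were divided by the exon length in kb. That length joins all annotated exons of a gene, whichever transcripts were expressed, so the order between genes is approximate. In DMSO, CCND1 led at 320.6 CPM per kb, followed by CDK4 at 132, CDC25A at 26.2, RB1 at 21.3, CDK2 at 20.7, CCND3 at 14.8, CCNE1 at 9.72, CCNE2 at 7.17 and CDK6 at 6.64. The samples of RB1 and CDK2 overlapped, as did those of CCNE2 and CDK6. In PB+RA the order was CCND1 at 503, CDK4 at 89.5, RB1 at 13.4, CCND3 at 9.40, CDK6 at 9.16, CCNE1 at 8.45, CDC25A at 6.55, CDK2 at 2.79 and CCNE2 at 0.705 CPM per kb. CCND3 overlapped CDK6, and CDK6 overlapped CCNE1. CDK6 was thus last of the 9 tested genes in DMSO and above 4 of them in PB+RA, while CDC25A moved from the third place to the seventh.

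Within pairs of like function the balance shifted, and these ratios per kb are given as a description. CCND1 made up 95.5% ± 0.96 (SD, n = 4) of the summed D cyclin level in DMSO, 95.8% ± 0.907 with RA, 97.8% ± 0.394 with PB and 98.1% ± 0.436 with both agents. CDK6 made up 4.78% ± 0.661 of the CDK4 and CDK6 level in DMSO, 7.30% ± 1.64 with RA, 7.94% ± 0.458 with PB and 9.23% ± 1.74 with both agents. CCNE2 made up 42.5% ± 2.51 of the E cyclin level in DMSO, 30.3% ± 1.77 with RA, 16.02% ± 2.64 with PB and 7.70% ± 2.29 with both agents. The E cyclin shares of the 4 groups lay furthest apart. The ratio of CCNE1 to CCNE2 was 1.35 in DMSO samples (1.18 to 1.498 over the 4) and reached 2.30 with RA, 5.30 with PB and 12.4 (9.33 to 17.8) with both. On CPM not divided by length, the DMSO ratio was on the other side of equality.

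**Figure D4:**
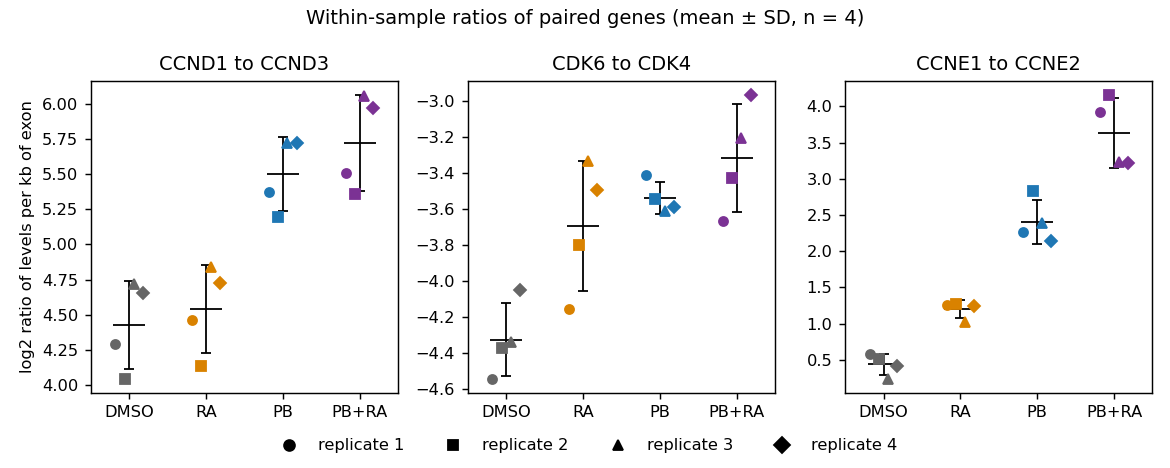
The log2 ratio of levels per kb of exon (y axis) for CCND1 to CCND3, CDK6 to CDK4 and CCNE1 to CCNE2 in each sample of the 4 groups (x axis). Points are samples, with shapes for replicate numbers, and lines and bars are the mean ± SD (n = 4). The CCNE1 to CCNE2 ratio steps up from DMSO through RA and PB to PB+RA.

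Replicates 1 and 2 often lay apart from replicates 3 and 4. In 28 of 36 combinations of a tested gene with a group, replicates 3 and 4 lay wholly above or wholly below replicates 1 and 2. Over the 4 groups this held for 8, 6, 7 and 7 of the 9 genes in DMSO, RA, PB and PB+RA, beside 50.5%, 53.0%, 59.1% and 63.7% of all genes. CCND1 was higher in replicates 3 and 4 in each group, by 1.22 to 1.36-fold, and CDK2 likewise, by 1.09 to 1.94-fold, the last in PB+RA. CCND3 (ratios from 0.877 to 0.948) and CDC25A (0.776 to 0.925) were lower in replicates 3 and 4 in each group. The coefficient of variation within a group ran from 1.25% to 37.9%, and it exceeded counting error in 34 of the 36 combinations.

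The other genes of the pathway were read as lists. Over all genes tested, 16.9% were called higher and 11.3% lower in PB, 10.8% and 2.54% in RA, and 24.0% and 17.9% in PB+RA, with medians near 0, and the counts of each list stand beside these shares. Among the CDK inhibitors, which block G1 kinases, 0 rose and 4 of 7 fell in PB (median log2 fold change -0.52), 2 rose and 0 fell in RA (0.21), and 2 rose and 3 fell in PB+RA (-0.48). CDKN2C, an inhibitor of CDK4 and CDK6, went from 86.8 ± 8.38 CPM (SD, n = 4) in DMSO to 28.2 ± 5.85 in PB, a fall of 1.62 on the log2 scale (SE 0.222, adjusted p = 1.96e-05). CDKN1A, which encodes p21, rose in RA by 1.37 (SE 0.15, adjusted p = 7.38e-06), from 36.9 to 96.1 CPM. CDKN2B, another inhibitor of CDK4 and CDK6, rose in PB+RA by 1.39 (SE 0.146, adjusted p = 3.2e-07), from 9.02 to 24.1 CPM. In PB, CDKN1A was among the 4 that fell, by 0.52 (SE 0.152, adjusted p = 0.00922). CDKN1A and CDKN2B were the 2 inhibitors that rose in PB+RA, and CDKN1B, which encodes p27, was among those that fell. CDKN1C, counted among the falls in PB and PB+RA, was near the floor, at 0.443 CPM in DMSO, 0.101 in PB and 0.114 in PB+RA.

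Of the pocket proteins, E2F factors and their DP partners, 6 of 12 fell in PB (median -0.38), the same 6 fell in PB+RA (median -0.73), and 0 fell in RA (median -0.24). They were E2F1, E2F2, E2F7, E2F8, RBL1 and TFDP1. E2F7, a repressive E2F, fell by 2.77 in PB (SE 0.235, adjusted p = 9.18e-08) and by 4.09 in PB+RA (adjusted p = 1e-09). E2F5 rose in RA by 0.53 (SE 0.146, adjusted p = 0.0105) and TFDP2 in PB+RA by 0.56 (SE 0.0434, adjusted p = 8.14e-09). Of the CDK-activating kinase, CDC25 and inhibitory kinase genes, 2 of 7 fell in PB (median -0.37), 0 were called in RA (median -0.19) and 5 fell in PB+RA (median -0.92). CDC25C, a mitotic phosphatase, fell by 1.06 in PB (SE 0.106, adjusted p = 4.32e-07). PKMYT1, an inhibitory kinase of CDK1, fell by 2.45 in PB+RA (SE 0.113, adjusted p = 1.98e-11).

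Of 12 genes of cyclin and p27 turnover, 1 rose and 5 fell in PB (median -0.44), 0 were called in RA (median -0.08), and 1 rose and 6 fell in PB+RA (median -0.59). The gene that rose was FBXW7, the ubiquitin ligase subunit that marks cyclin E for destruction. It went from 26.6 ± 1.69 CPM in DMSO to 42.7 ± 2.61 in PB and 40.2 ± 4.63 in PB+RA, log2 fold changes of 0.68 ± 0.08 (adjusted p = 2.35e-06) and 0.57 ± 0.0799 (adjusted p = 9.35e-06). CCNF, the F-box cyclin, fell by 0.91 in PB (SE 0.0821, adjusted p = 1.39e-07) and by 1.72 in PB+RA (adjusted p = 3.36e-11). Of the later cyclins and CDK1, 4 of 5 fell in PB (median -1.004) and in PB+RA (median -2.06), and 1 of 5 in RA (median -0.34). CCNA2, the cyclin of S phase, was at 226.9 CPM in DMSO, 159 with RA, 78.7 with PB and 28.7 with both agents. It fell by 0.52 in RA (adjusted p = 0.00081), by 1.53 in PB (adjusted p = 6.89e-09) and by 3.01 in PB+RA (adjusted p = 1.52e-12). CCNA1, whose mean was under 1 CPM, was called higher in RA and PB+RA.

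The remaining lists hold genes further from G1, and their counts stand beside 28.2% of all genes called in PB, 13.3% in RA and 41.9% in PB+RA. Of 14 transcriptional and neuronal CDKs and their partners, 2 rose and 1 fell in PB (median 0.01), 1 rose in RA (median 0.07), and 3 rose and 2 fell in PB+RA (median -0.03). CCNL2, a cyclin tied to splicing, rose by 0.71 in PB (adjusted p = 4.71e-07) and by 0.94 in PB+RA (adjusted p = 6.56e-09). CCNK, the partner of CDK12, fell by 0.54 in PB (adjusted p = 5.15e-07) and by 0.68 in PB+RA (adjusted p = 1.53e-08). CDK5R1, the activator of the neuronal kinase CDK5, rose in RA by 0.58 (SE 0.112, adjusted p = 0.000872). Of 12 other cyclins and CDK-like kinases, 2 rose in PB (median -0.04), 1 in RA (median 0.16) and 3 in PB+RA (median 0.02), where 2 fell. CCNG2, a cyclin linked to cell-cycle arrest, rose in all 3 groups, from 15.98 CPM in DMSO to 28.2 with RA (0.81, adjusted p = 8.89e-06), 40.9 with PB (1.36, adjusted p = 7.93e-09) and 52.8 with both agents (1.70, adjusted p = 1.25e-10). CCNG1 fell in PB+RA by 0.58 (adjusted p = 4.97e-06).

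**Figure D5:**
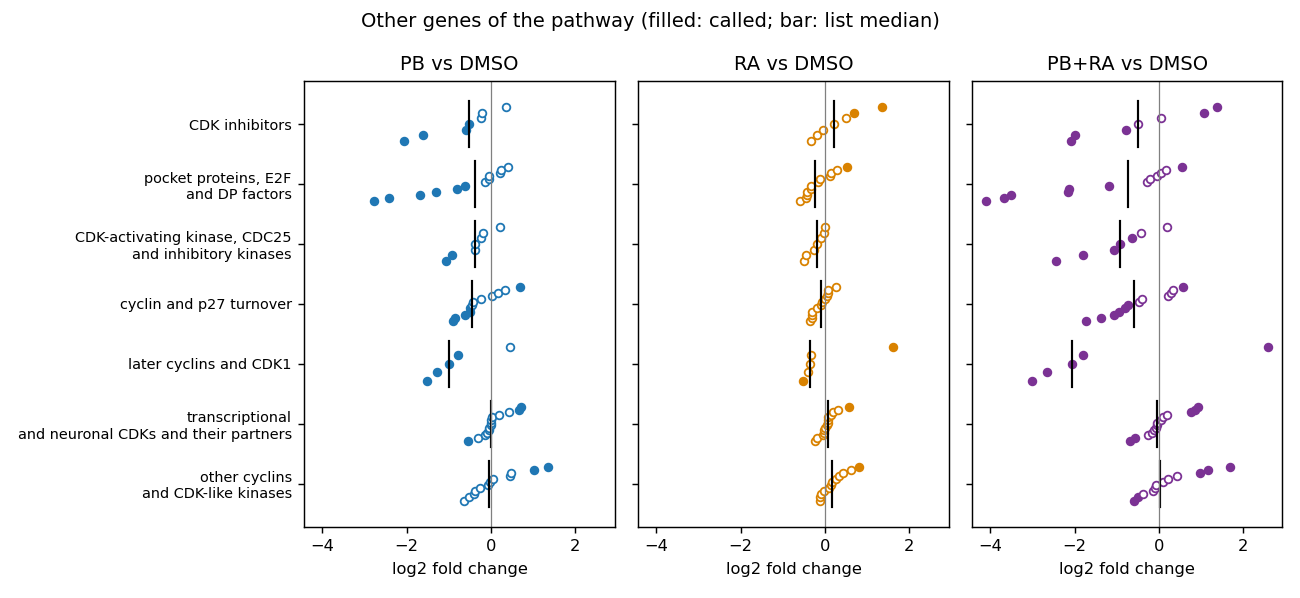
The log2 fold change (x axis) of the tested genes of the 7 other pathway lists (y axis) in PB, RA and PB+RA against DMSO. Each point is a gene, filled where it was called, and the black bar is the list median. The later cyclins and CDK1 have medians of -1.004 in PB and -2.06 in PB+RA, and the medians of the transcriptional and neuronal CDKs stay near 0.

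The genes whose level followed each of the 10 most closely were found by Pearson's r of log2 CPM over the 16 samples, among 10002 genes. The samples share 4 groups, so these r describe likeness of pattern only. CCNE2 was most like FANCG and RAD54L (both 0.998), genes of DNA repair, and CDK2 was most like NDE1 (0.998) and the histone chaperone gene NASP (0.995). CDC25A was most like GMPS (0.992), of guanine nucleotide synthesis, and C21orf58 (0.990). RB1 was most like NRAS (0.984) and the checkpoint kinase gene CHEK1 (0.983), and CDK4 was most like DUT (0.984), of thymidine nucleotide synthesis, and THOC6 (0.983). CCND1 was most like CERK (0.985) and LINC00667 (0.970), and CCND3 was most like HCFC1R1 (0.981) and MRPS34 (0.977). The closest to CCNE1 were further off, at 0.865 for WASF1 and 0.823 for CAMK2N2.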

How the data were processed

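RNA was measured in 16 samples of SK-N-BE(2)C, and groups and replicate numbers came from the sample titles. The submitters' processing notes name Trim Galore 0.6.4, STAR 2.6.1d, DESeq2 1.32.0 and the build hg19. The deposited counts are raw read counts per gene, and the CPM were scaled by the authors to each sample's total. A deposited table of the authors' own comparisons (log2 fold changes and adjusted p-values) was not used. The annotation release and the strand setting of the counting are not given in the sources used here, so genes overlapping on opposite strands are uncertain.

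Counts were tested in R 4.3.3 with edgeR 4.0.16 (filterByExpr, TMM factors from 0.983 to 1.02, a robust quasi-likelihood fit with a coefficient per group), with Benjamini-Hochberg adjustment over 15415 genes. Exon lengths and GC content, from GENCODE models on GRCh37, were found for 95.2% of them. Alternatives included DESeq2 1.42.0, limma 3.58.1 (voom), other filters and scalings, a replicate block, GC and length correction, other fold minimums, replicates 1 and 2 or 3 and 4 alone, and each sample left out. The procedure was tested on simulated data with known changes. The simulated samples were drawn independently, so that test does not cover deviations shared by replicate number.

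Samples with the same replicate number deviated together from their group means (24 pairs, r from 0.330 to 0.573), so the numbers, which come from the titles, pair the samples. The genes and lists were chosen with earlier results of these data known. Of each list, the called genes with the largest rise and fall in PB, RA and PB+RA were named if their mean was at least 1 CPM. The genes named for likeness were the 2 closest to each of the 10 genes that was called in any comparison, with 10 CPM or more on average, and opposite-strand neighbours were named if above 0.1 of the gene's level. Counts of 0 allow up to 3 counts, and this floor covers counting error only. The summed level of the adrenergic markers is not reported here.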

Additional observations from a re-analysis of the deposited data

Results flagged for a closer look

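RB1 in RA replicate 1 was 136.5 CPM, the highest of its group, with a gap to the next sample of 0.840 of the group's range, above Dixon's critical value for 4 samples. This was 1 of 37 groups of 4 samples examined, and chance alone picks out about 1 in 20. The effect of RA differed with and without PB, by the test of the interaction on the log2 scale, for CCNE1 (-0.56), CCNE2 (-0.99) and CDC25A (-0.68).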

How the results depend on the processing

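The 63 combinations of a tested gene and a comparison gave 1692 values under 27 alternatives. Of these, 1639 kept their direction and their side of the thresholds, 20 gained a call, 11 lost one and 22 changed sign. DESeq2, its size factors, no filter on low counts and fits of the compared groups alone changed no call. The replicate block changed 2 calls of the 9 genes, CDK6 in PB and in the interaction.

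Genes called of the 9, with no fold minimum, were 9 in PB, 5 in RA, 7 for PB+RA against PB and 8 against RA. With a log2 minimum of 1 they were 0 in RA, 3 in PB+RA, 1 against PB, 3 against RA and 0 for the interaction. In RA they were 2 with the GC and length correction, with or without the replicate block, and 2 in replicates 3 and 4 alone. With each sample left out they ran from 4 to 5 in PB, 1 to 2 in RA (2 without DMSO replicate 4 or RA replicate 1), 6 to 8 in PB+RA, 3 to 4 against PB and 1 to 3 for the interaction (1 without DMSO replicate 3). Over all genes tested, the calls with no fold minimum and with a minimum of 1 were 8269 and 1686 in PB, 5420 and 914 in RA, 10189 and 3120 in PB+RA, 5877 and 1058 against PB, 8391 and 1776 against RA, 7984 and 1621 for PB against RA, and 816 and 169 for the interaction. The interaction called 530 genes, 1171 with the replicate block and 1074 with the block and the correction, and 342 to 515 with a sample left out (353 without DMSO replicate 1, 342 without RA replicate 3).

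On CPM not divided by length, the log2 ratio of CDK6 to CDK4 was -2.34, -1.71, -1.55 and -1.33 in DMSO, RA, PB and PB+RA, that of CCND1 to CCND3 was 5.23 in PB, and that of CCNE1 to CCNE2 was -0.40, 0.37, 1.57 and 2.80, because exon lengths differ. The changes of sign were in values near 0 that were not called. For CDK6 the change of PB+RA against PB was 0.17 in replicates 3 and 4, and -0.18 to 0.058 with each sample left out. Against RA it was 0.0017 with the block and the correction, and -0.20 to 0.084 with each sample left out. PB against RA was -0.22 in replicates 3 and 4, and -0.14 to 0.13 with each sample left out. The interaction of CCND1 was -0.030 in replicates 1 and 2, and -0.031 to 0.17 with each sample left out, and that of CCND3 was 0.0033 in replicates 3 and 4, and -0.084 to 0.012. Except where a sample, length or construction is named, the cause was not tested. Depth limits CCND2, and CCNE2 in PB+RA.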
